A study of Homo sapiens with 60 samples.

Results

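Of the 60675 gene identifiers in the count table, 36 genes of the response to low oxygen and of glucose breakdown were followed: 17 glycolytic enzymes and 19 other target genes of the hypoxia-inducible factors (HIF). They were chosen by name, as textbook members of these pathways, with earlier results of these data known, and all 36 passed the filter on low counts, as did 19366 genes in all. RNA was sequenced from SW1783, an established human astrocytoma line, after 24 h in L-15 medium with ethanol extracts of herbs or of traditional multi-herb formulas dissolved in DMSO. The question was how the glycolytic enzymes and the other HIF targets differed between each extract and vehicle, and whether the dose mattered. The single herbs were Polygalae Radix at 1.2, 6 and 30 µg/mL (2 libraries at each dose), Aucklandiae Radix at 6.4, 32 and 160 µg/mL (2 libraries at each dose), and Menthae Herba and Saposhnikoviae Radix at 20, 100 and 500 µg/mL (3 libraries at each dose). The formulas, all at 20, 100 and 500 µg/mL, were Guibi-tang and Saengmaek-san with 3 libraries at each dose, Soyo-san with 2 and Okbyeongpung-san with 1. The 3 doses of an extract are called low, medium and high, and the control is vehicle (DMSO alone, 3 libraries). Line, medium and time were shared by all groups, vehicle included. The labels do not say whether replicates were separate cultures, so the p-values measure the spread between these libraries only.

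Glycolysis splits glucose into pyruvate, and lactate dehydrogenase turns pyruvate into lactate. HIF is a pair of proteins, an alpha subunit that oxygen-dependent prolyl hydroxylases (the EGLN enzymes) mark for destruction and a stable partner, and in low oxygen it raises glycolytic enzymes, glucose uptake, acid export, blood vessel growth signals and mitochondrial turnover. Glioma cells are known for a high rate of glycolysis, and CA9, VEGFA and ADM mark low-oxygen regions of these tumours.

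HIF binds DNA at a short element whose core is ACGTG or GCGTG. The windows below are the 250 bases before the RefSeq transcript start (build GRCh38.p14, RefSeq, 5′ to 3′ on the gene's strand) of 6 members whose levels moved most or in opposite directions, and capitals mark every ACGTG or GCGTG on either strand (on the other strand they read CACGT and CACGC; overlapping matches run together, as in CACGTG). The windows lie at chr17:28576896-28577145 (minus strand) for ALDOC, chrX:78103998-78104247 (plus) for PGK1, chr11:18394313-18394562 (plus) for LDHA, chr9:35673678-35673927 (plus) for CA9, chr10:131981924-131982173 (minus) for BNIP3 and chr11:10304823-10305072 (plus) for ADM.
ALDOC: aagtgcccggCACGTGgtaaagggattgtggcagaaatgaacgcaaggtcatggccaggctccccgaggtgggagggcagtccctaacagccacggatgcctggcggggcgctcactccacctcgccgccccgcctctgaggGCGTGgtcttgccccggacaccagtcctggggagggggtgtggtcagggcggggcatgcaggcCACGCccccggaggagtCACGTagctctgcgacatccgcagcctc
PGK1: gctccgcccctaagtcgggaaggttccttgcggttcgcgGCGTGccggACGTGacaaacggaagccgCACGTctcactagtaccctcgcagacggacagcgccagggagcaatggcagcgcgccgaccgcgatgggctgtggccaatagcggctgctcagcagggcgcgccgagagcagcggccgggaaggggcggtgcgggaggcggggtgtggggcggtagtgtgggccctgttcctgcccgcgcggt
LDHA: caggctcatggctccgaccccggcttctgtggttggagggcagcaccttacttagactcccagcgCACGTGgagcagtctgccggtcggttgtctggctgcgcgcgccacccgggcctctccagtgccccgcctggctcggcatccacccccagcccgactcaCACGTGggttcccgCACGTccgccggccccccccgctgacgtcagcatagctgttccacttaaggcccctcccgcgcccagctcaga
CA9: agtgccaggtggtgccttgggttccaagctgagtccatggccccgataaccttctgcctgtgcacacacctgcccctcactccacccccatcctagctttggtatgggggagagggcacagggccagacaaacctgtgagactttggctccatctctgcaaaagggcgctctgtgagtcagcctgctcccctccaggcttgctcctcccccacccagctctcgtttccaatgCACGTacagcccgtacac
BNIP3: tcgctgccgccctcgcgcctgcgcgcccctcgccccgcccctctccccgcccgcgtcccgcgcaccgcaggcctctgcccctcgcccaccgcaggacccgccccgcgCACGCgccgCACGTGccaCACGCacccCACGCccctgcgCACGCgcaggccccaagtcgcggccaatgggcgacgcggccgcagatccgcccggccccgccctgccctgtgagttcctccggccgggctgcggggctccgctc
ADM: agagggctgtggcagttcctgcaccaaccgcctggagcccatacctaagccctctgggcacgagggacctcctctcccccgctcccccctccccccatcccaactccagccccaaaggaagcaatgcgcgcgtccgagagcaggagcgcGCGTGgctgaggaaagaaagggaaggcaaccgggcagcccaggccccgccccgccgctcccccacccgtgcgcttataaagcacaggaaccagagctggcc

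The CA9 window held 1 match, 18 bases before the start, and the ADM window held 1, a GCGTG 101 bases before the start. ALDOC and LDHA held 5 matches each, PGK1 3 and BNIP3 6, where a CACGTG counts once on each strand. RefSeq windows were found for 32 of the 36 members. Of all 35116 windows of this length, 18.5% held ACGTG and 43.2% held ACGTG or GCGTG. Among 37 windows of the 17 glycolytic enzymes the shares were 37.8% and 51.4%, and among 24 windows of 15 other HIF targets they were 37.5% and 75.0%. A match in these letters is a description and was not tested for binding.

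Libraries held 19031133 to 37687006 expected counts, and the vehicle libraries 25186553 to 26477790. Among genes listed for astrocytoma or glia, VIM and CD44 stood at 5214 ± 31.5 and 2888 ± 118 CPM (read counts scaled to library size by TMM, SD, n = 3) in vehicle. SOX9 stood at 86.2 ± 3.72, SLC1A3 at 32.6 ± 1.08 and NES at 7.62 ± 0.656 CPM. The astrocyte markers of the same list were at or near 0, with GFAP and S100B at 0.179 and 0.152 CPM and AQP4 and ALDH1L1 at 0. The neuronal markers SNAP25 and SYT1 (30.1 and 25.2 CPM), the epithelial KRT8 (16.6 CPM) and the leukocyte PTPRC (10.4 CPM) were detected in vehicle, and CD3E and TTR were at 0 in every library. In 10 of the 60 libraries levels leaned toward short transcripts (a slope of log2 level on log transcript length under -0.15). They were Saposhnikoviae Radix high replicate 2 and low replicates 2 and 3, Menthae Herba high replicate 3, Saengmaek-san replicate 1 at each dose, replicate 2 of Guibi-tang at the low and the medium dose, and the high library of Okbyeongpung-san. Each extract belongs to a library-name set that does not hold the vehicle libraries, so set and extract cannot be told apart against vehicle, whereas a high and a low dose of an extract share a set. The 5 highest slopes of all 60 were those of Polygalae Radix high (0.088 and 0.092) and Guibi-tang high (0.0788, 0.0667 and 0.0648), against -0.031, 0.004 and 0.027 in vehicle. With the slope as a term in the fit, 27 members were lower and 1 higher in Polygalae Radix high, and 25 lower and 5 higher in Guibi-tang high, than in vehicle. Mitochondrially encoded genes took 19.2% and 11.7% of counts in the Polygalae Radix high libraries and 10.1% to 10.3% in vehicle. In such bulk libraries a value is a share of all messenger RNA, so fewer cells of a kind and less RNA per cell cannot be told apart.

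In vehicle the most abundant members were ENO1, GAPDH and PKM, all of the lower part of glycolysis, although ENO2, of the same steps, stood at 35.3 ± 1.04 CPM per kb. Per kilobase of transcript, the level of ENO1, which makes phosphoenolpyruvate, was 4459 ± 271 CPM per kb and that of GAPDH, which oxidises glyceraldehyde phosphate, was 3388 ± 152. PKM, the last enzyme before pyruvate, stood at 1968 ± 30.6, LDHA at 1447 ± 54.4 and ALDOA at 1141 ± 53.8 CPM per kb (SD, n = 3 for each). Among the other HIF targets the lactate exporter SLC16A3 (362 ± 22.3 CPM per kb), the glucose importer SLC2A1 (350 ± 20.5) and VEGFA (258 ± 8.99) led, and SLC16A3 and SLC2A1 lay within 1 SD of each other. EGLN3, ANKRD37, ALDOC and ADM stood lowest, at 4.13 ± 0.193, 4.58 ± 0.95, 8.47 ± 0.45 and 8.72 ± 0.186 CPM per kb. Lengths are medians over coding transcripts, so these levels depend on which transcripts the cells use. In CPM without the division by length, the order in vehicle was another. GAPDH had 4181 to 4552 CPM, PKM 3562 to 3672 CPM and ENO1 2728 to 3039 CPM. SLC2A1 (189 to 212 CPM) stood below VEGFA (276 to 295 CPM) and BHLHE40 (240 to 255 CPM).

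At the high doses, in the fit of all groups together, the extracts fell into 4 that moved at least 17 of the 36 members and 3 that moved at most 8. A gene was called when edgeR's adjusted p against vehicle was under 0.05, over all 19366 genes. With Polygalae Radix 27 members fell and 1 rose, where 25.6% and 22.3% of all genes did, and 47.9% in either direction. With Guibi-tang 25 fell and 4 rose (26.6% and 23.6% of all genes, 50.2% either way). With Aucklandiae Radix 4 fell and 13 rose (17.0% and 15.7% of all genes, 32.7% either way), and with Menthae Herba 1 fell and 21 rose (11.7% and 11.1%, 22.8% either way). Saposhnikoviae Radix lowered 5 and raised 3 (4.05% and 8.59% of all genes, 12.6% either way), Saengmaek-san 4 and 4 (8.55% and 8.87%, 17.4% either way) and Soyo-san 1 and 3 (1.29% and 1.61%, 2.9% either way). The median log2 fold change of all genes lay between -0.02 and 0.03 in these comparisons, all of which share the 3 vehicle libraries. The split depended on the fit. Saengmaek-san had 21 called members with the length slope as a term and 15 without the libraries that lean toward short transcripts. Saposhnikoviae Radix had 13 with the slope term. With the compared groups alone Soyo-san had 16 and Menthae Herba 13.

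**Figure D1:**
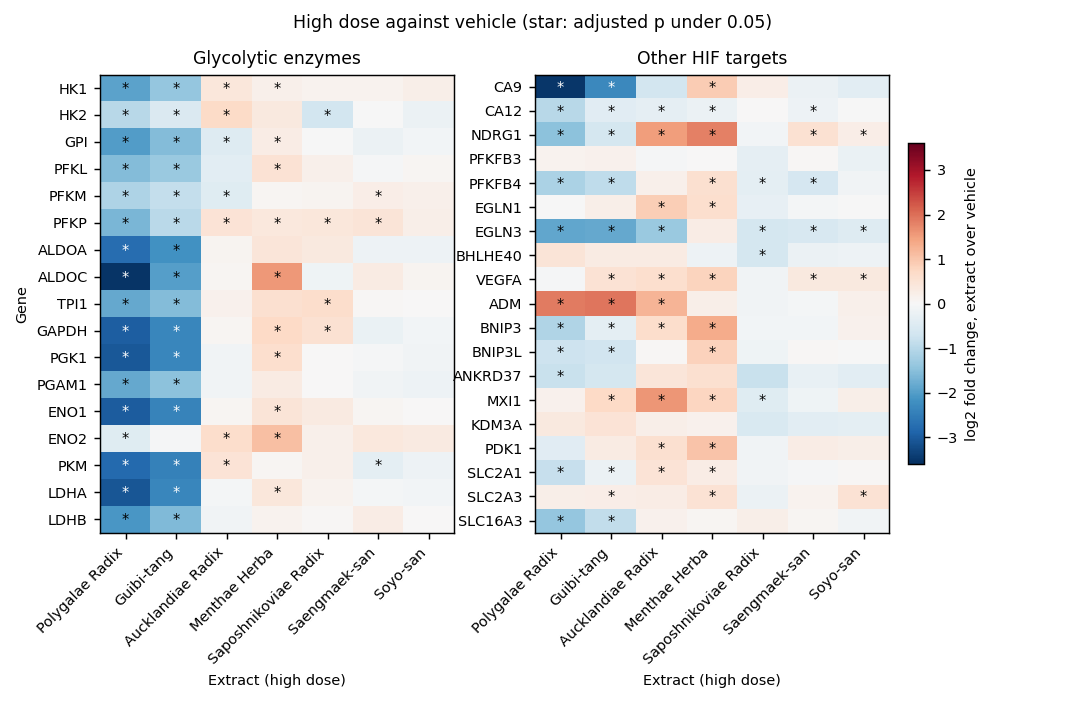
Log2 fold change of each member at the high dose of 7 extracts over vehicle (blue lower, red higher in the extract; columns are extracts, rows are genes, stars mark adjusted p under 0.05). Polygalae Radix and Guibi-tang show 17 and 16 lowered glycolytic enzymes, with ADM raised, whereas Aucklandiae Radix and Menthae Herba show raised NDRG1.

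Under Polygalae Radix at 30 µg/mL all 17 glycolytic enzymes fell, by a median of 2.00 on the log2 scale, where 25.6% of all genes fell. The median was -1.61 over the 6 genes of the upper steps, from hexokinase to phosphofructokinase. The aldolases and TPI1 had a median of -2.75 (3 genes), the steps from GAPDH to pyruvate kinase -2.88 (6 genes), and LDHA and LDHB -3.08 and -2.08. PGK1 (ENSG00000102144), which makes the first ATP of the pathway, stood at 103 and 115 CPM in the Polygalae Radix high libraries, against 944, 872 and 900 CPM in vehicle (-3.06 ± 0.15 on the log2 scale, fold change ± SE, edgeR's adjusted p = 2.66e-20). LDHA (ENSG00000134333, chr11:18394388-18408425, GRCh38) stood at 210 and 233 CPM, against 1957, 1861 and 1820 CPM in vehicle, which is 8.47-fold lower (-3.08 ± 0.10, adjusted p = 8.36e-26). Both high-dose libraries lay far below the vehicle range for either gene.

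The deepest fall was that of ALDOC (ENSG00000109107, chr17:28573115-28577264), the brain-type aldolase, with 0.791 and 0.451 CPM in Polygalae Radix high, against 7.87, 7.42 and 7.08 CPM in vehicle (-3.53 ± 0.24, adjusted p = 1.34e-15). ALDOC ranked 84 from the lowest of the 19366 genes by fold change. GAPDH, used in many laboratories as a loading control, had 544 and 568 CPM in Polygalae Radix high and 4552, 4268 and 4181 CPM in vehicle (-2.96 ± 0.24, adjusted p = 1.56e-13). PKM had 554 and 485 CPM, against 3672, 3597 and 3562 CPM in vehicle (-2.80 ± 0.15). At the shallow end was ENO2, the neuron-type enolase, with 54.8 and 45.6 CPM in Polygalae Radix high and 69.7, 66.1 and 66.6 CPM in vehicle (-0.43 ± 0.17, adjusted p = 0.0418). Its call was lost in a refit without a library (highest adjusted p 0.3), while the calls of the other 16 enzymes held in every such refit. HK2, the inducible hexokinase, had 29 and 30 CPM, against 58.8, 58.5 and 58.9 CPM in vehicle (-0.99 ± 0.24), and the muscle-type phosphofructokinase PFKM had 19.8 and 19.4 CPM, against 42.3, 43.9 and 39.7 CPM in vehicle (-1.10 ± 0.09).

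The other HIF targets did not move as a block under Polygalae Radix: 10 of 19 fell, 1 rose and 8 were not called, with a median of -0.74. Of all genes, 25.6% fell and 22.3% rose. Among genes of transport and pH, CA9 (ENSG00000107159, chr9:35673856-35681159), the acid-handling carbonic anhydrase at the cell surface, stood at 3.54 and 3.16 CPM in Polygalae Radix high, against 41.6, 37.3 and 35.5 CPM in vehicle (-3.50 ± 0.35, adjusted p = 3.66e-11). Its relative CA12 had 34.9 and 35.0 CPM, against 70.7, 69.8 and 71.0 CPM in vehicle (-1.01 ± 0.08). SLC16A3, which exports lactate, and SLC2A1, which imports glucose, fell by 1.39 and 0.82, whereas the glucose importer SLC2A3 was not called (0.22 ± 0.11, adjusted p = 0.0785).

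Among metabolic switches, PFKFB4, which sets the fructose bisphosphate signal, had 15.6 and 13.7 CPM in Polygalae Radix high and 34.3, 30.4 and 31.7 CPM in vehicle (-1.13 ± 0.10). Its relative PFKFB3 (0.13 ± 0.15) and PDK1, a kinase of pyruvate dehydrogenase (-0.40 ± 0.18), were not called. EGLN3, a prolyl hydroxylase that HIF itself induces, fell to 1.90 and 2.34 CPM in Polygalae Radix high, against 8.08, 7.42 and 7.51 CPM in vehicle (-1.86 ± 0.13, adjusted p = 1.19e-15). EGLN1, the main oxygen sensor, was not called, at 66.7 and 72.8 CPM in Polygalae Radix high and 68.4 to 72.8 CPM in vehicle, with overlapping libraries. The transcriptional regulators BHLHE40 (0.46 ± 0.22) and MXI1 (0.15 ± 0.16) and the histone demethylase KDM3A (0.36 ± 0.24) were not called either. BNIP3 and BNIP3L, receptors that mark mitochondria for removal, fell by 1.09 and 0.74. ANKRD37, an ankyrin-repeat gene, was called lower (-0.80 ± 0.33, adjusted p = 0.0407), and that call was lost in a refit without a library (0.167).

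The secreted members parted from the enzymes. ADM (ENSG00000148926, chr11:10304680-10307397), the vessel-widening peptide adrenomedullin, rose to 39.5 and 40.5 CPM in Polygalae Radix high, against 11.0, 11.2 and 10.7 CPM in vehicle, which is 3.66-fold (1.87 ± 0.11, adjusted p = 6.43e-18). VEGFA (ENSG00000112715, chr6:43770184-43786487), the growth factor of blood vessels, had 295 and 259 CPM in Polygalae Radix high and 280, 295 and 276 CPM in vehicle (-0.03 ± 0.10, adjusted p = 0.824), with overlapping libraries. NDRG1, a gene known as one of the strongest responders to low oxygen, fell to 21.6 and 20.6 CPM, against 60.2, 59.1 and 57.8 CPM in vehicle (-1.48 ± 0.07, adjusted p = 5.23e-21).

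**Figure D2:**
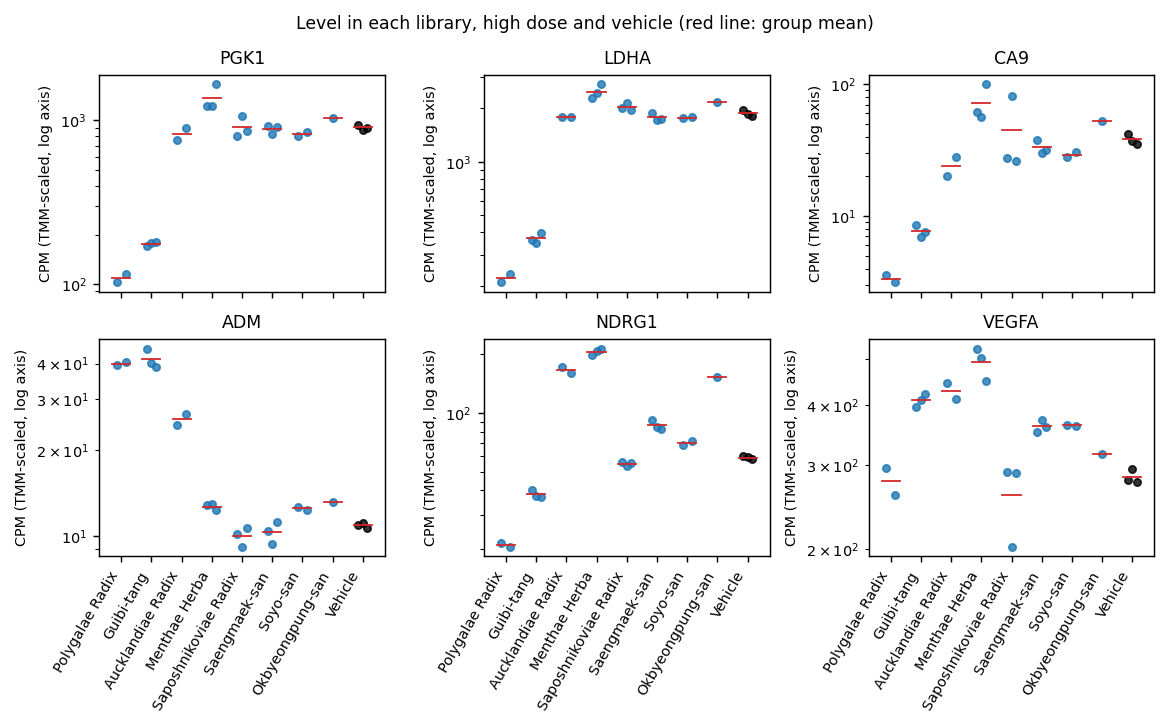
Level of 6 members in each library at the high dose of 8 extracts and in vehicle (black), as TMM-scaled CPM on a log axis; red lines are group means and each point is 1 library. PGK1, LDHA and CA9 are lowest in Polygalae Radix and Guibi-tang, ADM is highest there, and NDRG1 is highest in Menthae Herba, Aucklandiae Radix and the 1 Okbyeongpung-san library.

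Guibi-tang, a formula whose traditional recipe holds Polygalae Radix and Aucklandiae Radix, lowered 16 of the 17 glycolytic enzymes at 500 µg/mL, by a median of 1.57. Of all genes, 26.6% fell. PKM stood at 658, 651 and 698 CPM in Guibi-tang high, against 3672, 3597 and 3562 CPM in vehicle (-2.43 ± 0.12, adjusted p = 1.34e-19). ENO1 had 526, 536 and 562 CPM, against 3039, 2728 and 2754 CPM in vehicle (-2.39 ± 0.18, adjusted p = 1.70e-14), and PGK1 had 169, 179 and 180 CPM, against 944, 872 and 900 CPM in vehicle (-2.36 ± 0.12). GAPDH had 872, 784 and 897 CPM (-2.35 ± 0.20), LDHA 364, 349 and 399 CPM (-2.34 ± 0.08), and ALDOC 1.75, 1.91 and 1.99 CPM (-1.98 ± 0.18) in Guibi-tang high, each below every vehicle library. PFKM had 22.5, 22.6 and 24.6 CPM, and HK2 39.4, 42.6 and 39.8 CPM, in Guibi-tang high, and the HK2 call (-0.53 ± 0.21, adjusted p = 0.0326) was lost in a refit without a library (0.0817). ENO2 alone among the enzymes was not called, at 61.9, 67.9 and 68.7 CPM in Guibi-tang high and 66.1 to 69.7 CPM in vehicle.

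Of the other HIF targets, 9 fell and 4 rose with Guibi-tang (26.6% and 23.6% of all genes), with a median of -0.22. ADM stood at 45, 40.1 and 39.0 CPM in Guibi-tang high, against 10.7 to 11.2 CPM in vehicle (1.92 ± 0.10, adjusted p = 2.53e-19). MXI1, an antagonist of MYC, had 22.4, 20.7 and 20.5 CPM, against 12.5, 13.2 and 12.6 CPM in vehicle (0.73 ± 0.14, adjusted p = 3.29e-05). VEGFA had 396, 409 and 422 CPM, against 276 to 295 CPM in vehicle (0.53 ± 0.09, adjusted p = 8.77e-06), and SLC2A3 rose by 0.24 ± 0.10 with a call lost in a refit (0.11). CA9 fell to 8.60, 6.94 and 7.54 CPM, against 35.5 to 41.6 CPM in vehicle (-2.31 ± 0.27), and EGLN3 to 2.04, 1.88 and 2.48 CPM, against 7.42 to 8.08 CPM in vehicle (-1.84 ± 0.11, adjusted p = 1.17e-17). PFKFB4 had 16.5, 17.7 and 17.2 CPM, against 30.4 to 34.3 CPM in vehicle (-0.91 ± 0.09). NDRG1 had 40.3, 37.3 and 37.1 CPM, against 57.8 to 60.2 CPM in vehicle (-0.63 ± 0.06), and CA12 51.8, 51.3 and 55.1 CPM, against 69.8 to 71.0 CPM (-0.42 ± 0.07).

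**Figure D3:**
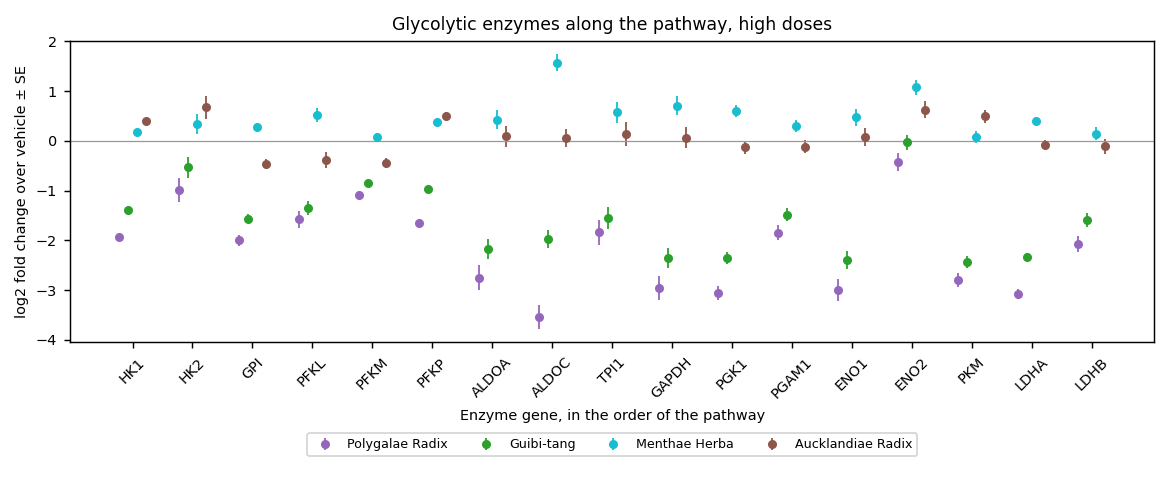
Log2 fold change over vehicle of the 17 glycolytic enzymes in the order of the pathway, for the high doses of 4 extracts; points are edgeR estimates and bars are ± 1 SE. Polygalae Radix and Guibi-tang lie below 0 from HK1 to LDHB, with ENO2 nearest to 0, and Menthae Herba peaks at ALDOC (1.57) and ENO2 (1.08).

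Abundant genes fell widely in these comparisons. Among the 587 genes whose mean log2 CPM was 8 or more, 78.0% fell with Polygalae Radix high, with a median of -1.10, and 80.6% fell with Guibi-tang high, with a median of -0.97. The 11 glycolytic enzymes of that level had medians of -2.75 with Polygalae Radix and -2.17 with Guibi-tang, where the lowest 5% of such genes began at -2.63 and -2.35. VEGFA and SLC16A3 are the other HIF targets of that level. How far the level of a gene, or a change in total RNA, bears on these falls was not tested.

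High and low doses were also compared within a library-name set. Against the low dose, Polygalae Radix high lowered 25 members and raised 3 (25.2% and 20.8% of all genes, 46.0% either way), and Guibi-tang high lowered 24 and raised 5 (27.4% and 23.8%, 51.2% either way). For Polygalae Radix ENO2 and ANKRD37, lower against vehicle, were not called against the low dose. For Guibi-tang HK2 and SLC2A3, called against vehicle, were not, and BHLHE40 and KDM3A were called higher against the low dose alone. LDHA had 210 and 233 CPM at the high dose of Polygalae Radix, against 2074 and 2143 CPM at its low dose (-3.25 ± 0.10, adjusted p = 7.80e-26), and ALDOC and GAPDH differed by -3.45 ± 0.25 and -3.05 ± 0.25. CA9 (-3.14 ± 0.35), NDRG1 (-1.47 ± 0.07) and EGLN3 (-1.47 ± 0.13) fell and ADM rose (1.94 ± 0.12). KDM3A (0.78 ± 0.26) and PFKFB3 (0.43 ± 0.16) were also called higher, and both calls were lost in refits without a library (highest adjusted p 0.0678 and 0.119). For Guibi-tang, high against low dose gave -2.50 ± 0.18 for ENO1, -2.44 ± 0.08 for LDHA and -2.41 ± 0.12 for PGK1. CA9 (-2.09 ± 0.27), EGLN3 (-1.53 ± 0.11) and SLC16A3 (-0.94 ± 0.22) fell, and ADM (1.88 ± 0.10), MXI1 (0.85 ± 0.14) and KDM3A (0.84 ± 0.21) rose.

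The change from low to high dose was set against each other for these 2 extracts, which differ in dose (500 µg/mL of Guibi-tang and 30 µg/mL of Polygalae Radix). It differed for 9 of the 36 members, where 4.09% of all genes did, and all 9 differences were positive, that is, a shallower fall or a larger rise with Guibi-tang. ALDOC differed by 1.55 ± 0.31 on the log2 scale (adjusted p = 0.00121), NDRG1 by 0.89 ± 0.09 (7.99e-09), LDHA by 0.81 ± 0.12 (1.59e-05) and PFKP by 0.66 ± 0.11 (8.97e-05). BNIP3, CA12, VEGFA, HK1 and SLC2A1 differed by 0.46 to 0.58. The calls of BNIP3, VEGFA and SLC2A1 were lost in refits without a library. ADM differed by -0.06 ± 0.15 and was not called.

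In comparisons inside a set at the high dose, Polygalae Radix stood below Aucklandiae Radix for 31 members and above it for 1 (49.1% of all genes called in either direction), and all 17 glycolytic enzymes were lower. NDRG1 had 21.6 and 20.6 CPM with Polygalae Radix and 173 and 160 CPM with Aucklandiae Radix (-2.98 ± 0.08, adjusted p = 5.60e-29). The member that was higher with Polygalae Radix was ADM, with 39.5 and 40.5 CPM, against 24.5 and 26.8 CPM with Aucklandiae Radix (0.64 ± 0.12). Guibi-tang stood below Saengmaek-san for 26 members and above it for 5 (51.6% of all genes called): ADM (2.00 ± 0.10), MXI1 (0.90 ± 0.14), KDM3A (0.86 ± 0.22), BHLHE40 (0.53 ± 0.20) and EGLN1 (0.30 ± 0.12). All 17 enzymes were lower with Guibi-tang than with Saengmaek-san, ENO2 included (-0.42 ± 0.15). In refits without a library the calls of EGLN1, BHLHE40, ENO2, HK2, BNIP3 and SLC2A1 were lost there, and that of EGLN3 between Polygalae Radix and Aucklandiae Radix.

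With Aucklandiae Radix at 160 µg/mL, 5 of the 17 glycolytic enzymes rose and 2 fell. Of the 19 other HIF targets, 8 rose and 2 fell, where 15.7% of all genes rose and 17.0% fell. MXI1 stood at 41.2 and 35.9 CPM in Aucklandiae Radix high, against 12.5 to 13.2 CPM in vehicle (1.59 ± 0.15, adjusted p = 6.36e-11). NDRG1 had 173 and 160 CPM, against 57.8 to 60.2 CPM in vehicle (1.5 ± 0.06, adjusted p = 2.47e-21), and ADM had 24.5 and 26.8 CPM, against 10.7 to 11.2 CPM in vehicle (1.23 ± 0.11, adjusted p = 5.83e-12). The oxygen sensor EGLN1 rose by 0.90 ± 0.13, VEGFA, at 444 and 411 CPM against 276 to 295 CPM in vehicle, by 0.59 ± 0.10, BNIP3 by 0.65 ± 0.11, SLC2A1 by 0.48 ± 0.08 and PDK1 by 0.57 ± 0.18, whose call was lost in a refit without a library (0.0712).

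EGLN1 rose while EGLN3 fell, to 2.69 and 3.36 CPM in Aucklandiae Radix high, against 7.42 to 8.08 CPM in vehicle (-1.34 ± 0.12, adjusted p = 1.88e-11). CA12 had 58.8 and 53.2 CPM, against 69.8 to 71.0 CPM in vehicle (-0.33 ± 0.08). CA9, at 20.3 and 27.9 CPM in Aucklandiae Radix high, lay below the vehicle libraries and was not called (-0.66 ± 0.29, adjusted p = 0.0769). PFKFB4 was not called either, at 33.6 and 39.6 CPM in Aucklandiae Radix high and 30.4 to 34.3 CPM in vehicle. Of the enzymes, PKM rose to 5310 and 4848 CPM, against 3562 to 3672 CPM in vehicle (0.49 ± 0.13), and HK1 and PFKP rose by 0.39 and 0.49. HK2, with 91.1 and 96.5 CPM against 58.5 to 58.9 CPM in vehicle (0.68 ± 0.23), and ENO2, with 93.3 and 114 CPM against 66.1 to 69.7 CPM in vehicle (0.62 ± 0.17), were called, and both calls were lost in a refit without a library (highest adjusted p 0.121 and 0.114). GPI, the isomerase after hexokinase (-0.47 ± 0.10), and PFKM, at 27.8 and 33.8 CPM against 39.7 to 43.9 CPM in vehicle (-0.45 ± 0.09), fell. GAPDH (4606 and 4435 CPM), LDHA (1789 and 1776 CPM), PGK1 (755 and 895 CPM) and ALDOC (7.51 and 8.05 CPM) were not called in Aucklandiae Radix high.

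Against its own low dose, Aucklandiae Radix high raised 12 members and lowered 3 (10.5% and 13.4% of all genes, 24.0% either way). MXI1 (1.62 ± 0.17), NDRG1 (1.42 ± 0.07) and ADM (1.07 ± 0.12) led the rises, with HK2 (0.89 ± 0.26), ENO2 (0.70 ± 0.19) and PKM (0.57 ± 0.14) among the enzymes. EGLN3 (-1.07 ± 0.13), PFKM (-0.52 ± 0.10) and GPI (-0.36 ± 0.10) fell. The calls of HK2, ENO2 and GPI were lost in a refit without a library (highest adjusted p 0.0684, 0.0987 and 0.126).

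Menthae Herba at 500 µg/mL raised 10 of the 17 glycolytic enzymes and 11 of the 19 other HIF targets, with medians of 0.40 and 0.57. Of all genes, 11.1% rose. NDRG1 stood at 198, 208 and 213 CPM in Menthae Herba high, against 57.8 to 60.2 CPM in vehicle (1.80 ± 0.06, adjusted p = 6.38e-25). ALDOC had 17.1, 22.0 and 27.5 CPM, against 7.08 to 7.87 CPM in vehicle (1.57 ± 0.16, adjusted p = 9.24e-10), and ENO2 had 132, 120 and 174 CPM, against 66.1 to 69.7 CPM in vehicle (1.08 ± 0.16, adjusted p = 1.27e-06). These 2 tissue-restricted enzymes had the largest log2 fold changes of the 17.

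The mitophagy receptors rose together with Menthae Herba: BNIP3 had 249, 241 and 289 CPM, against 104, 104 and 99.7 CPM in vehicle (1.34 ± 0.10, adjusted p = 1.63e-13), and BNIP3L rose by 0.83 ± 0.10. PDK1 had 63.4, 65.2 and 40.4 CPM, against 24.5, 28.8 and 29.5 CPM in vehicle (1.03 ± 0.16, adjusted p = 5.54e-06). VEGFA had 524, 502 and 449 CPM, against 276 to 295 CPM in vehicle (0.79 ± 0.09), MXI1 22.7, 24.3 and 19 CPM, against 12.5 to 13.2 CPM (0.78 ± 0.14), and EGLN1 rose by 0.61 ± 0.12. PFKFB4 rose to 45.5, 46.3 and 52.7 CPM, against 30.4 to 34.3 CPM in vehicle (0.58 ± 0.09). ADM, at 12.8, 12.9 and 12.3 CPM in Menthae Herba high, and EGLN3, at 8.70, 9.19 and 9.66 CPM, lay above the vehicle libraries and were not called (0.22 ± 0.10 and 0.26 ± 0.10).

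Library replicate 3 of Menthae Herba high, which leans toward short transcripts, stood above the others for many enzymes. CA9 had 61.1, 56.0 and 99.5 CPM in Menthae Herba high, against 35.5 to 41.6 CPM in vehicle (0.92 ± 0.25, adjusted p = 0.00651), GAPDH 5870, 6521 and 8846 CPM, against 4181 to 4552 CPM (0.71 ± 0.19), and PGK1 1231, 1225 and 1661 CPM, against 872 to 944 CPM (0.60 ± 0.12). LDHA had 2281, 2425 and 2727 CPM, against 1820 to 1957 CPM in vehicle (0.40 ± 0.08). PKM (3262, 3694 and 4411 CPM), PFKM (41.5, 40.2 and 51.2 CPM) and HK2 (89.4, 79.5 and 53.8 CPM) overlapped vehicle and were not called. CA12, at 68.6, 59.5 and 56.4 CPM, was the 1 member called lower (-0.20 ± 0.07, adjusted p = 0.0341), a call lost in a refit without a library (0.246). Without replicate 3 the count of called members was 14 in place of 22, and the calls of CA9 and GAPDH were lost in a refit (highest adjusted p 0.122 and 0.0819). NDRG1, ALDOC, ENO2, BNIP3 and PDK1 kept their calls in every refit.

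Against its low dose Menthae Herba high raised 21 members and lowered 0 (6.33% and 9.3% of all genes, 15.6% either way, and 24 members at an unadjusted p under 0.05). The largest were NDRG1 (1.77 ± 0.06), ALDOC (1.72 ± 0.16), CA9 (1.15 ± 0.25), BNIP3 (1.10 ± 0.10), ENO2 (1.05 ± 0.16) and GAPDH (0.85 ± 0.19). Against Saposhnikoviae Radix high, from the same set and at the same 500 µg/mL, Menthae Herba high stood above for 20 members and below for 1 (14.1% of all genes called). There 14 of 19 other HIF targets were higher, with a median of 0.89, and 6 of 17 enzymes, with a median of 0.16. NDRG1 (1.91 ± 0.06), ALDOC (1.73 ± 0.16), BNIP3 (1.44 ± 0.10) and ANKRD37 (1.38 ± 0.29) differed most. When only these 2 groups entered the fit, edgeR called 0 members, with 14 at an unadjusted p under 0.05, whereas DESeq2 on all libraries called 21.

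Saposhnikoviae Radix at 500 µg/mL raised 3 enzymes and lowered 1, and lowered 4 other HIF targets, where 8.59% of all genes rose and 4.05% fell. For GAPDH and TPI1 library replicate 2 stood apart, the library with the strongest lean toward short transcripts of all 60. GAPDH had 4269, 10398 and 4331 CPM in Saposhnikoviae Radix high, against 4181 to 4552 CPM in vehicle (0.55 ± 0.19, adjusted p = 0.0491), and TPI1, the triose isomerase, had 709, 1909 and 731 CPM, against 788, 695 and 685 CPM in vehicle (0.63 ± 0.22, adjusted p = 0.0485). Without replicate 2 the log2 fold change was -0.01 for GAPDH and -0.0051 for TPI1, and the calls of HK2, BHLHE40 and MXI1 were lost too. HK2 had 47.6, 15.1 and 47.6 CPM, against 58.5 to 58.9 CPM in vehicle (-0.67 ± 0.21), and MXI1 12.6, 5.17 and 10.2 CPM, against 12.5 to 13.2 CPM (-0.44 ± 0.14). CA9 had 27.5, 81.0 and 26.1 CPM, so that replicate 2 lay above and the other libraries below the vehicle range.

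EGLN3 stood at 5.14, 4.74 and 5.01 CPM in Saposhnikoviae Radix high against 7.42 to 8.08 CPM in vehicle (-0.63 ± 0.10, adjusted p = 2.16e-04). PFKP, the platelet-type phosphofructokinase, stood at 255, 298 and 249 CPM against 194 to 210 CPM (0.41 ± 0.07, adjusted p = 3.38e-04). Both kept their calls in every refit without a library, but lost them when only the compared groups entered edgeR's fit (adjusted p = 0.717 for each). However, both also lay outside the vehicle range in every low-dose library, and PFKP had 247, 252 and 234 CPM in Saposhnikoviae Radix low. BHLHE40 fell by 0.64 ± 0.20 and PFKFB4, at 24.1, 27.4 and 23.5 CPM, by 0.36 ± 0.09 (highest adjusted p in a refit 0.0504). The count of 8 called members was 14, 4 and 14 without high replicates 1, 2 and 3, and 2, 3 and 3 without vehicle replicates 1, 2 and 3. Against the low dose edgeR called 0 members, with 6 at an unadjusted p under 0.05 and 2 called by DESeq2 (0.382% of all genes called by edgeR). Without high replicate 2 that comparison called 10.

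With Saengmaek-san at 500 µg/mL, NDRG1 stood at 92.1, 84.6 and 82.7 CPM, against 57.8 to 60.2 CPM in vehicle (0.55 ± 0.06, adjusted p = 1.13e-08), and VEGFA at 352, 371 and 360 CPM, against 276 to 295 CPM (0.35 ± 0.09, adjusted p = 0.00751). PFKP, at 277, 280 and 269 CPM, rose by 0.45 ± 0.07, and PFKM, at 51.3, 47.4 and 49.3 CPM against 39.7 to 43.9 CPM, by 0.23 ± 0.08. PFKFB4 fell to 22.6, 19.2 and 22.0 CPM, against 30.4 to 34.3 CPM in vehicle (-0.60 ± 0.09), EGLN3 to 5.32, 4.86 and 5.26 CPM (-0.58 ± 0.10), PKM to 2949, 2693 and 2790 CPM (-0.36 ± 0.12) and CA12 to 62.0, 64.2 and 58.9 CPM (-0.19 ± 0.07). The calls of PFKM, PKM and CA12 were lost in a refit without a library (highest adjusted p 0.175, 0.0826 and 0.199), and the count of 8 was 5 without high replicate 1 or 3 and when any vehicle library was left out. Against the low dose 2 members rose and 3 fell (2.41% and 3.28% of all genes, 5.7% either way): NDRG1 (0.64 ± 0.06), VEGFA (0.30 ± 0.09), PFKFB4 (-0.45 ± 0.09), EGLN3 (-0.33 ± 0.10) and LDHA (-0.27 ± 0.08). Of these, VEGFA, EGLN3 and LDHA lost the call in refits, and 2 to 4 members were called there.

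Soyo-san at 500 µg/mL moved 0 of the 17 glycolytic enzymes by edgeR's adjusted p, where 2.9% of all genes were called. EdgeR called 4 of the 36 members, 6 were at an unadjusted p under 0.05 and DESeq2 called 5. SLC2A3 rose to 51.0 and 54.6 CPM, against 36.2, 35.5 and 38.5 CPM in vehicle (0.52 ± 0.11, adjusted p = 0.00216), VEGFA to 364 and 362 CPM (0.36 ± 0.10) and NDRG1 to 68.2 and 72.2 CPM (0.25 ± 0.06), and EGLN3 fell to 5.21 and 5.92 CPM (-0.46 ± 0.12). All 4 calls were lost in a refit without a library, and edgeR's count was 1 and 0 without high replicates 1 and 2 and 2 when a vehicle library was left out. SLC2A3 (0.51 ± 0.12) and NDRG1 (0.37 ± 0.07) were the members that differed from the low dose (0.263% of all genes rose, 0.501% changed either way), again with calls lost in refits (highest adjusted p 0.401 and 0.154).

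Members not called with these 3 extracts at the high dose had the following levels. ADM had 10.2, 9.20 and 10.7 CPM with Saposhnikoviae Radix, 10.4, 9.36 and 11.3 CPM with Saengmaek-san and 12.7 and 12.3 CPM with Soyo-san, against 10.7 to 11.2 CPM in vehicle. LDHA had 1956 to 2135, 1719 to 1894 and 1760 to 1779 CPM, against 1820 to 1957 CPM in vehicle, and PGK1 805 to 1059, 825 to 924 and 798 to 848 CPM, against 872 to 944 CPM in vehicle. ALDOC had 5.25, 9.53 and 5.51 CPM with Saposhnikoviae Radix, 8.77, 9.39 and 9.15 CPM with Saengmaek-san and 8.09 and 7.90 CPM with Soyo-san, against 7.08 to 7.87 CPM in vehicle. ENO2 had 62.5, 113 and 56.4 CPM, 97.7, 79.5 and 88.3 CPM, and 84.5 and 84.1 CPM with the same 3 extracts, against 66.1 to 69.7 CPM in vehicle.

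Replicate 2 of Saposhnikoviae Radix high stood apart for further uncalled members. VEGFA had 290, 203 and 288 CPM with Saposhnikoviae Radix, and PKM 3301, 5595 and 3320 CPM. NDRG1 had 55.8, 53.4 and 55.5 CPM and CA12 65.0, 80.2 and 67.4 CPM with that extract. PFKM had 44.7, 45.3 and 46.1 CPM with Saposhnikoviae Radix and 48.5 and 46.6 CPM with Soyo-san, above the vehicle range of 39.7 to 43.9 CPM but not called. CA9 had 37.5, 30.2 and 31.5 CPM with Saengmaek-san and 27.8 and 30.7 CPM with Soyo-san, and MXI1 had 12.1, 11.0 and 11.0 CPM and 14.6 and 15.2 CPM. GAPDH had 3970, 3407 and 3539 CPM with Saengmaek-san and 3886 and 4284 CPM with Soyo-san, and HK2 53.3, 65.0 and 57.1 CPM and 53.0 and 49.0 CPM. With Soyo-san PKM had 3082 and 3219 CPM, CA12 71.7 and 68.8 CPM and PFKFB4 28.4 and 30.2 CPM, all uncalled.

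Okbyeongpung-san had 1 library at each dose, and its high library leans toward short transcripts. NDRG1 stood at 61.1, 64.1 and 153 CPM at the low, medium and high dose, and at 57.8 to 60.2 CPM in vehicle. GAPDH (7698 CPM), ENO2 (148 CPM), CA12 (106 CPM) and CA9 (52.7 CPM) lay above vehicle in the high library and HK2 (23.8 CPM) below it, whereas PGK1 (1035 CPM), LDHA (2174 CPM), ADM (13.2 CPM), VEGFA (315 CPM) and MXI1 (12.2 CPM) were nearer. EGLN3 had 5.42 CPM, PFKFB4 26.4, PFKM 51.0, PKM 4765 and ALDOC 9.28 CPM in the high library. With the 3 doses pooled, NDRG1 (0.51 ± 0.06) and PFKP (0.30 ± 0.07) were called higher and EGLN3 (-0.42 ± 0.10) lower than vehicle (11.5% of all genes called). Without the high library edgeR called 0 members, with 3 at an unadjusted p under 0.05, and it called 9 and 8 without the low and the medium library. With all 3 doses DESeq2 called 6.

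**Figure D4:**
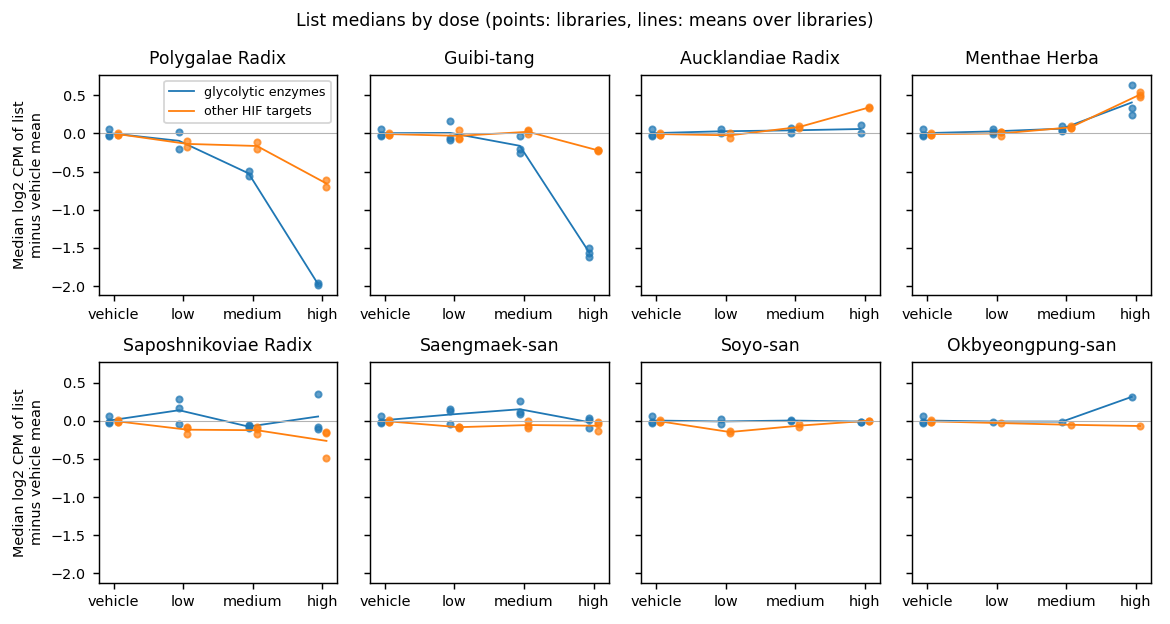
Median over the 17 glycolytic enzymes (blue) and over the 19 other HIF targets (orange) of log2 CPM minus the vehicle mean, from vehicle through low and medium to high dose, for 8 extracts; points are libraries and lines join means. The enzyme median falls with dose in Polygalae Radix (to -1.96 and -1.99) and in Guibi-tang (to -1.62, -1.56 and -1.5 at the high dose), and the other HIF targets fall less.

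The falls under Polygalae Radix were graded over its doses. At the medium dose of 6 µg/mL, 14 members were lower than vehicle and 1 higher (2.64% and 1.75% of all genes, 4.39% either way), and at the low dose of 1.2 µg/mL edgeR called 0 (1.11% of all genes; 5 members had an unadjusted p under 0.05, and DESeq2 called 1). PGK1 stood at 681 and 875 CPM at the low dose, 453 and 556 CPM at the medium dose and 103 and 115 CPM at the high dose, and at 872 to 944 CPM in vehicle. LDHA stood at 2074 and 2143, 1167 and 1293, and 210 and 233 CPM over the same doses. Vehicle had 1820 to 1957 CPM, so both low-dose libraries lay above vehicle and the medium and high doses below it. ADM ran the other way, with 9.45 and 11.4 CPM at the low, 16.2 and 17.9 CPM at the medium and 39.5 and 40.5 CPM at the high dose. The medium dose differed from vehicle by -0.84 ± 0.13 for PGK1 (adjusted p = 3.87e-05), by -1.07 ± 0.30 for CA9 (0.0268) and by 0.64 ± 0.11 for ADM (1.5e-04). The CA9 call was lost in a refit without a library (0.261).

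Guibi-tang moved 6 members at 100 µg/mL, 2 higher and 4 lower (3.66% and 3.09% of all genes, 6.74% either way). ADM rose (0.61 ± 0.10, adjusted p = 9.92e-05) with 14.7, 19.2 and 16.2 CPM, as did SLC2A3 (0.32 ± 0.10), and PKM (-0.49 ± 0.12), EGLN3 (-0.38 ± 0.10), PFKFB4 (-0.34 ± 0.09) and GPI (-0.30 ± 0.09) fell. Of these, ADM and PKM kept their calls in every refit without a library. NDRG1 rose at the medium doses of Aucklandiae Radix (87.0 and 84.5 CPM, 0.54 ± 0.06) and Menthae Herba (84.2, 83.5 and 86.8 CPM, 0.52 ± 0.06), as did BNIP3 (0.44 ± 0.11 and 0.52 ± 0.10) and PDK1 (0.59 ± 0.18 and 0.70 ± 0.16). Both PDK1 calls, and that of BNIP3 with Aucklandiae Radix, were lost in refits. At the medium dose of Aucklandiae Radix 6 members rose and 0 fell by edgeR (2.33% and 1.85% of all genes, 4.18% either way; 10 members at an unadjusted p under 0.05), and at that of Menthae Herba 4 rose (0.506% of all genes, 0.997% either way). The medium doses of Saposhnikoviae Radix and Saengmaek-san called 2 members each (0.971% and 4.35% of all genes) and that of Soyo-san 0 by edgeR (0.238%), with 4 members at an unadjusted p under 0.05 and 1 called by DESeq2. At the low doses, 6 members were called for Saposhnikoviae Radix (17.0% of all genes) and 2 for Saengmaek-san (4.01%). EdgeR called 0 at the low doses of Aucklandiae Radix (0.728% of all genes), Menthae Herba (0.516%), Guibi-tang (2.46%) and Soyo-san (1.52%), with 3, 6, 5 and 4 members at an unadjusted p under 0.05 and 1, 1, 3 and 2 called by DESeq2.

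Some members lay apart from vehicle at every low dose, whatever the extract. EGLN3 ranged from 5.46 to 7.19 CPM over the 19 low-dose libraries, against 7.42 to 8.08 CPM in vehicle, KDM3A from 20.0 to 37.3 CPM, against 39.7 to 42.4 CPM, and CA12 from 58.0 to 69.0 CPM, against 69.8 to 71.0 CPM. PFKP ranged from 218 to 272 CPM, against 194 to 210 CPM in vehicle. Over all genes tested, 3.88% had every low-dose library below every vehicle library and 4.26% had every one above. HK2, PFKFB4 and BHLHE40 lay below the vehicle range in 18 of the 19 low-dose libraries, and HK1 and BNIP3 lay above it in 18. For these genes, as for every member, a difference of an extract from vehicle cannot be told apart from the difference between library-name sets. The within-set values given above for EGLN3 do not depend on vehicle.

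Set side by side, the medians of the glycolytic enzymes and the other HIF targets lay farthest apart with Polygalae Radix and Guibi-tang. At the high dose the median log2 fold change of the enzymes minus that of the other targets was -1.26 for Polygalae Radix and -1.34 for Guibi-tang. It was -0.25 for Aucklandiae Radix, -0.17 for Menthae Herba, 0.27 for Saposhnikoviae Radix, 0.07 for Saengmaek-san and 0.02 for Soyo-san. Within single libraries the difference was -1.26 and -1.37 for Polygalae Radix high and -1.41, -1.33 and -1.28 for Guibi-tang high. For Saposhnikoviae Radix high it was 0.04, 0.84 and 0.08 in replicates 1, 2 and 3, so its median difference rested on replicate 2. For Menthae Herba high it was -0.26, -0.15 and 0.09, with a change of sign in replicate 3. Both of these libraries lean toward short transcripts. The lists differ in level: 11 enzymes and 2 other targets had a mean log2 CPM of 8 or more. All genes of that level had medians of -1.10 with Polygalae Radix and -0.97 with Guibi-tang. Genes with a mean log2 CPM of 4 to 8 had medians of -0.12 and -0.10. The part of level in the differences between the lists was not tested. The list medians are descriptions and carry no test.

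Other genes of the pathway, from lists that hold none of the members, were counted in the same comparisons, whose shares over all genes are those given with the members. For Polygalae Radix, for example, 25.6% of all genes fell and 22.3% rose. Of 32 further HIF targets, 17 fell and 8 rose with Polygalae Radix, 16 and 13 with Guibi-tang, 3 and 13 with Aucklandiae Radix and 7 and 13 with Menthae Herba, with medians of -0.61, -0.24, 0.21 and 0.20. ANGPTL4, a lipoprotein lipase inhibitor, had the largest called change with Guibi-tang (2.17 ± 0.22), Aucklandiae Radix (4.34 ± 0.25, adjusted p = 1.45e-17) and Menthae Herba (3.35 ± 0.23). ANGPTL4 also led with Soyo-san (1.41 ± 0.23), Saengmaek-san (1.68 ± 0.22) and Saposhnikoviae Radix (1.20 ± 0.22), where 1, 4 and 2 further targets rose and 1, 5 and 7 fell.

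Of 18 genes that handle pyruvate and lactate, 12 fell and 3 rose with Polygalae Radix and 9 fell and 3 rose with Guibi-tang (26.6% and 23.6% of all genes for Guibi-tang). PC, pyruvate carboxylase, changed most with Polygalae Radix (-1.95 ± 0.12), and PDK4, a starvation-induced kinase of pyruvate dehydrogenase, rose most with Guibi-tang (2.50 ± 0.31) and Menthae Herba (2.47 ± 0.31). Menthae Herba raised 5 and lowered 1, Aucklandiae Radix raised 3 and lowered 4, led by PDK3 (-1.01 ± 0.12), Saposhnikoviae Radix raised 3 and lowered 1, led by MPC1 (0.59 ± 0.17), and Saengmaek-san raised 5 and lowered 2, led by PDK4 (0.97 ± 0.32); for Soyo-san no gene of the list was called by edgeR.

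The main HIF subunits HIF1A, EPAS1 and ARNT were not called at any high dose against vehicle. HIF1A, the alpha subunit most tied to glycolysis, differed by -0.39 ± 0.33 with Polygalae Radix, -0.02 ± 0.30 with Guibi-tang, 0.58 ± 0.33 with Aucklandiae Radix and 0.17 ± 0.30 with Menthae Herba (adjusted p = 0.353, 0.972, 0.184 and 0.727). ARNT2, a second partner of the alpha subunits, was lower with Aucklandiae Radix (-0.92 ± 0.22, adjusted p = 0.00114) and Menthae Herba (-0.54 ± 0.19, adjusted p = 0.0359), the 1 gene of the machinery called for each. Of 11 genes of the HIF machinery, 2 rose and 1 fell with Polygalae Radix and with Guibi-tang, where 47.9% and 50.2% of all genes were called. EGLN2, another prolyl hydroxylase, rose by 1.11 ± 0.19 with Polygalae Radix (adjusted p = 5.87e-06), and VHL, which recognises hydroxylated HIF, rose by 0.78 ± 0.11 with Guibi-tang (adjusted p = 1.42e-07). With Saposhnikoviae Radix 2 rose, led by ELOB, a partner of VHL (1.08 ± 0.33), and with Saengmaek-san 1 rose, VHL (0.38 ± 0.11). HIF is controlled mainly through the stability of its protein, which was not measured here.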

How the data were processed

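RNA was sequenced from SW1783 cells in 60 libraries. The deposited values are expected counts per gene, made by the authors with STAR 2.7.3a and RSEM 1.3.3 after FastQC 0.11.9 and Trim Galore 0.6.5, per the submitters' processing notes, on GRCh38. Of the 60675 identifiers, 67.9% carry a symbol. Expected counts were rounded and filtered, leaving 19366 genes. A gene needed 15 counts in all and, in at least 1 library, a level equal to 10 counts at the median library size. The smallest group, which sets that number of libraries, held 1. They were tested with edgeR 4.0.16 in R 4.3.3, by the quasi-likelihood test on all 25 groups together with TMM scaling, and p-values were adjusted over all genes by the Benjamini-Hochberg method. DESeq2 1.42.0, other scalings and filters, a replicate block, a term for the length slope and leaving out libraries were tried as alternatives. Levels are TMM-scaled CPM. The tests were also run on simulated counts with fewer libraries, groups and changed genes than here. That run does not measure error rates where a large share of genes moved. The labels do not say how replicates were raised. Members and lists were chosen with earlier results of these data known. In each high-dose comparison with vehicle or low dose, up to 3 called members with the largest rise and up to 3 with the largest fall in each list were named (mean log2 CPM of at least 2), and those named in 3 or more comparisons are given in the high-dose and vehicle libraries. In other lists the gene with the largest called change was named, except 1 that is not reported here. For the glycolytic enzymes with named pseudogene copies, counts assigned to the copies were at most 1.28% of those of enzyme and copies together. The other HIF targets were not checked this way. Doses of Polygalae Radix and Aucklandiae Radix were lower than those of the other extracts. The sample records give 0.1% DMSO and the series text 2%, and which was used is not settled by the sources used here.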

Additional observations from a re-analysis of the deposited data

Results flagged for a closer look

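The change from low to high dose differed between Guibi-tang and Polygalae Radix for 9 members by edgeR's test of the difference itself, adjusted over all genes. By that test 4.09% of all genes differed. On the log2 scale the Guibi-tang change minus the Polygalae Radix change was 1.5461 for ALDOC (SE 0.31), 0.8899 for NDRG1, 0.8097 for LDHA, 0.6642 for PFKP, 0.5806 for BNIP3, 0.5751 for CA12, 0.5667 for VEGFA, 0.5542 for HK1 and 0.4632 for SLC2A1. The calls of BNIP3, VEGFA and SLC2A1 were lost in refits without a library. The count of 9 members depended on the fit. It was 4 with no filter on low counts, 21 without the libraries that lean toward short transcripts and 19 with the length slope as a term. Guibi-tang and Polygalae Radix differ in dose and in library-name set, and the part of either was not tested. No group held enough libraries for the test of single outlying libraries.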

How the results depend on the processing

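Counts of called members were taken to hold within 1.5 times. Median differences were taken to hold when they shifted by less than the SD between single libraries of that high dose. That limit was wide for Saposhnikoviae Radix (libraries at 0.04, 0.84 and 0.08) and narrow for Soyo-san (-0.0103 and -0.0138). By these rules the 28 counts and median differences held in all 28 cases under RLE size factors and without mitochondrial genes. They held in 27 with the replicate block and in 25 with DESeq2. The labels do not say that a replicate number marks shared material. Of 18 comparisons of groups of 3, same-numbered libraries deviated together (every r over 0.1) in 1, Saengmaek-san medium against vehicle (0.611, 0.157 and 0.14), and groups of 2 were not checked this way. In the Polygalae Radix and Aucklandiae Radix groups replicate 2 had a higher mitochondrial share than replicate 3 at each dose. The replicate block moved the Soyo-san median difference of enzymes minus other targets to 0.032 and ended 4 named calls. These were TPI1 and GAPDH with Saposhnikoviae Radix high (adjusted p 0.0608 and 0.0597) and VEGFA with Soyo-san high (0.0586), all against vehicle, and VEGFA with Saengmaek-san high against low (0.052). With the compared groups alone the counts were 13 for Menthae Herba high against vehicle and 10 against its low dose, 0 for Saposhnikoviae Radix high and 16 for Soyo-san high against vehicle, 23 for Aucklandiae Radix and 0 for Soyo-san high against low, 70 over the medium and 29 over the low doses, 0 for Menthae Herba against Saposhnikoviae Radix, and 18 for Okbyeongpung-san. With no filter on low counts they were 2, 4 and 1 for Saposhnikoviae Radix, Saengmaek-san and Soyo-san high against vehicle, 2 and 0 for Saengmaek-san and Soyo-san high against low, 13 and 0 over the medium and low doses, 4 for Guibi-tang against Polygalae Radix and 1 for Okbyeongpung-san. Without the libraries that lean toward short transcripts they were 15 and 10 for Saengmaek-san and Soyo-san high against vehicle, 24, 10 and 5 for Aucklandiae Radix, Saengmaek-san and Soyo-san high against low, 78 and 37 over the medium and low doses and 21 for Guibi-tang against Polygalae Radix, and the Saengmaek-san median difference was 0.0375. With the length slope as a term they were 13, 21 and 12 for Saposhnikoviae Radix, Saengmaek-san and Soyo-san high against vehicle, 24, 5, 16 and 6 for Aucklandiae Radix, Saposhnikoviae Radix, Saengmaek-san and Soyo-san high against low, 87 and 66 over the medium and low doses, 19 for Guibi-tang against Polygalae Radix and 15 for Okbyeongpung-san. The median differences were then -1.37, -0.53, -0.0873 and -0.13 for Polygalae Radix, Aucklandiae Radix, Saengmaek-san and Soyo-san. DESeq2 called 2 for Saposhnikoviae Radix high against low, 17 over the low doses and 6 for Okbyeongpung-san. The cause of these shifts was not tested. TPI1 and GAPDH with Saposhnikoviae Radix turned to -0.0116 and -0.0176 without the leaning libraries and to -0.0051 and -0.0112 without high replicate 2, and reached 0.87 and 0.77 without high replicate 1.

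Leaving out 1 library at a time, counts against vehicle ran from 26 to 27 for Polygalae Radix high, 14 to 17 for Aucklandiae Radix, 14 to 24 for Menthae Herba, 2 to 14 for Saposhnikoviae Radix, 5 to 7 for Saengmaek-san, 26 to 29 for Guibi-tang and 0 to 2 for Soyo-san. High against low they ran from 25 to 26, 10 to 14, 17 to 24, 0 to 10, 2 to 4, 29 to 29 and 0 to 1 in that order of extracts. Over the medium doses they ran from 20 (without vehicle replicate 1) to 35, and over the low doses from 0 (without vehicle replicate 3) to 12, with 4 and 3 without Saposhnikoviae Radix low replicates 2 and 3. Polygalae Radix against Aucklandiae Radix ran from 31 to 32, Menthae Herba against Saposhnikoviae Radix from 18 to 25, Guibi-tang against Saengmaek-san from 26 to 29, Guibi-tang against Polygalae Radix from 7 to 9 and Okbyeongpung-san from 0 to 9. The median differences ran from -1.38 to -1.23 for Polygalae Radix, -0.32 to -0.21 for Aucklandiae Radix, -0.23 to -0.07 for Menthae Herba, 0.05 to 0.43 for Saposhnikoviae Radix, 0.0401 to 0.14 for Saengmaek-san, -1.38 to -1.31 for Guibi-tang and -0.0165 to 0.0617 for Soyo-san. Groups of 1 to 3 libraries limit the precision.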
